A study of Mus musculus with 32 samples.

Results

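The genes described here are 43 genes of DNA replication and of entry into S phase, the stage of the cell cycle in which the genome is copied, measured by RNA-seq in mouse haematopoietic stem cells (HSC) and multipotent progenitors (MPP). They were taken as a named list, by gene symbol, and not by any measured value. All 43 were found among the 41388 genes listed per library, and all 43 passed the filter on low counts in both cohorts. The list holds 10 genes of origin licensing, 7 of origin firing and helicase activation, 7 polymerase and primase subunits, 7 genes of the clamp, its loader and the lagging strand, 5 of nucleotide supply, 4 of S phase entry and its checkpoint, and 3 of chromatin assembly and histone mRNA.

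The study asked what loss of Jarid2, a cofactor of the repressive chromatin complex PRC2, does to gene expression in blood stem and progenitor cells, alone and together with Jak2V617F, an activating kinase mutation of myeloproliferative neoplasms. The mice were C57BL/6, in 2 cohorts. In the first, 8 weeks old, Cre recombinase was driven by Vav (Vav-CRE), a promoter active in blood cells from fetal life, and Jarid2-KO was set against control, labelled wild-type, with 3 libraries for each genotype and cell type. In the second, labelled 10 weeks old and 2 months after pIpC, the double-stranded RNA that switches on Mx1-CRE through interferon, Jak2V617F with Jarid2KO (called double mutant here) and Jak2V617F alone were set against control, labelled wild-type, with 2 libraries for each genotype and cell type. All groups of a cohort carry the same Cre label, and all Mx1-CRE groups, control included, had pIpC. Mx1-CRE is also active outside blood. The form of the Jak2V617F allele is not given in the sources used here. The study's design text names a Mx1-CRE Jarid2-KO arm where the sample labels name Jak2V617F, and the sample labels were followed. Both cell types were sorted as Lin-, cKit+, Sca1+ and CD48-, the HSC being CD150+ and the MPP CD150-. Each library came from pooled mice of both sexes. The protocol gives the pool as 5 per sex in one place and 3 per sex in another.

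Before S phase, the origin recognition complex (with Orc1 and Orc6) marks the places where copying can begin, and Cdc6 and Cdt1 help it to load the ring-shaped helicase of the Mcm2 to Mcm7 subunits. The kinase Cdc7 with its partner Dbf4 then starts the loaded helicases, which work with Cdc45 and the GINS subunits, while polymerase alpha with its primase makes the primers that polymerases delta and epsilon extend. Many of these genes are switched on at the end of G1 by E2F transcription factors, and HSC in adult marrow are known for being mostly out of cycle.

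The promoters of these genes were searched for the E2F type of motif, in the 4 forms TTTCCCGC, TTTCGCGC, TTTGCCGC and TTTGGCGC on both strands, in windows of 300 bases (250 before the gene start and 50 after it) from RefSeq on GRCm38.p6. Of the 36 members with a promoter in that table, 14 held the motif (38.9%), against 704 of all 27025 genes with a promoter (2.6%). These 14 were Cdc6, Cdt1, Clspn, Gins3, Lig1, Mcm3, Mcm5, Mcm6, Mcm7, Orc1, Pola1, Pold1, Pole2 and Rfc3. The CCAAT box stood in 19 of the 36 members (52.8%) and in 41.1% of all genes, and the CHR type of motif known from mitotic genes (TTTGAA or TTCGAA) in 8 of the 36 (22.2%) and in 21.7% of all genes. Base composition was not matched between the members and all genes. Of the 20 E2F-type matches in members, 1 overlapped a CCAAT or CHR-type match. Some overlapped each other, as in Mcm5 (starting 153 and 149 bases before the gene start) and Mcm6 (110 and 106 bases before it). The 4 promoters shown are those of the members with a match whose expression differed with the smallest p in the Vav-CRE cohort, and the match is in capitals. All 4 are written 5′ to 3′ on the strand of the gene: Cdt1 at chr8:122567765-122568064 (plus strand), Clspn at chr4:126556730-126557029 (plus strand), Pold1 at chr7:44548766-44549065 (minus strand) and Lig1 at chr7:13278576-13278875 (plus strand).
Cdt1: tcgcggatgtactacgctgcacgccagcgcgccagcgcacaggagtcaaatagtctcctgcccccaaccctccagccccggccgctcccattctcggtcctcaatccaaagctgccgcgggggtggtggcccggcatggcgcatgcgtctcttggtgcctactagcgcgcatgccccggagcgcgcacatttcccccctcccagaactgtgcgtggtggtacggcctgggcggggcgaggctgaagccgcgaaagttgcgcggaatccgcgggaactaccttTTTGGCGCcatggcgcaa
Clspn: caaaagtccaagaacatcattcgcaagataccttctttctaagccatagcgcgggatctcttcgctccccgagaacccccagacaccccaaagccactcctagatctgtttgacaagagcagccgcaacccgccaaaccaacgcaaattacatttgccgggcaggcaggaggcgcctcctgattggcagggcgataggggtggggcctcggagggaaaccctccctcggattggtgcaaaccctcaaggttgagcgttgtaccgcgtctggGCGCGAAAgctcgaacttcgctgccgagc
Pold1: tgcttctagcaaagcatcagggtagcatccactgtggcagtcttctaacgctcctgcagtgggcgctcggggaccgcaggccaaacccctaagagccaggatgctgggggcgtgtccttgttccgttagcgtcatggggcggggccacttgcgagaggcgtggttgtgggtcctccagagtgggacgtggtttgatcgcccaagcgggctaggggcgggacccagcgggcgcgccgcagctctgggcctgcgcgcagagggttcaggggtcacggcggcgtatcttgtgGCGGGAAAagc
Lig1: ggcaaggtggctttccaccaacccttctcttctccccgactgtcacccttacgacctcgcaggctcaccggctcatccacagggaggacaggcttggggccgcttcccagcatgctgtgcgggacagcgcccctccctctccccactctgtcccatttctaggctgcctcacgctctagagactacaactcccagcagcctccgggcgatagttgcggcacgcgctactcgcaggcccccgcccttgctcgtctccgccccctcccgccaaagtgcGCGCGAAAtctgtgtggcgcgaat
In all 4 the match lies just after a RefSeq gene start, beginning 32 bases after it in Cdt1, 21 in Clspn, 39 in Pold1 and 26 in Lig1. Lig1 has further RefSeq starts, and their windows held no match.

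The libraries held 10473535 to 27232379 counts in the Vav-CRE cohort and 7852483 to 20724168 in the Mx1-CRE cohort, and levels are given as CPM, the read count of a gene scaled to the size of its library, unless stated. Nothing in the labels says how far the pools of 1 group are independent, so p-values cover no more than the variation among these libraries. Counts of Jarid2 itself were not lower in the knockouts: it had 80.2 to 144 CPM in the 3 Vav-CRE Jarid2-KO HSC libraries against 77.6 to 109 CPM in the 3 of control HSC, and 52.6 to 169 CPM in the 4 double mutant libraries against 45.6 to 69.1 CPM in the other 8 Mx1-CRE libraries. Which exons were deleted is not given in the sources used here, so these counts do not check the labels. The stem cell markers (10 genes, among them Slamf1, which encodes CD150) summed to 3016 to 3989 CPM in all 12 Vav-CRE libraries and to 927 to 3543 CPM in the double mutants, but to 181 to 382 CPM in the 8 Mx1-CRE libraries labelled control or Jak2V617F. The 15 granulocyte and monocyte progenitor markers summed to 2829 to 6904 CPM in the double mutants, against 18928 to 80008 CPM in those 8 libraries. Lineage antigens that the sort should remove (8 genes) summed to 121 to 424 CPM in the 8, against 19.8 to 46.4 CPM in the double mutants, so the libraries labelled control and Jak2V617F go against their cell type labels. In 6 Mx1-CRE libraries 20 heart muscle genes held 6.18% to 9.44% of all counts, against 0.533% to 1.23% in the other 6 and at most 0.0034% in the Vav-CRE cohort.

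Per length, the most abundant members in the Vav-CRE cohort were Rfc2, a subunit of the loader of the PCNA clamp, and Rrm2, the small subunit of ribonucleotide reductase, the enzyme that makes deoxynucleotides, with means of 154 and 133 RPKM over the 12 libraries. The lowest was Dbf4, with 2.94 RPKM, below Orc1 with 3.41 RPKM. The 6 Mcm2 to Mcm7 subunits, which make up 1 ring together, did not have equal mRNA levels. Mcm3 averaged 111 ± 5.98 RPKM in Jarid2-KO HSC and 93.5 ± 9.61 RPKM in control HSC (SD, n = 3 each). Mcm2 averaged 39.3 ± 7.16 RPKM in Jarid2-KO HSC and 25.3 ± 7.97 RPKM in control HSC (SD, n = 3 each). Mcm2 was the lowest of the 6 in 11 of 12 libraries, the exception being Jarid2-KO MPP replicate 1, and Mcm3 was the highest in 11 of 12. Mcm2 was also the lowest in 11 of 12 Mx1-CRE libraries, where Mcm5 was the highest in 10. In the Mx1-CRE cohort Rrm2 led with a mean of 358 RPKM and Dbf4 was again the lowest, with 3.66 RPKM.

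**Figure D1:**
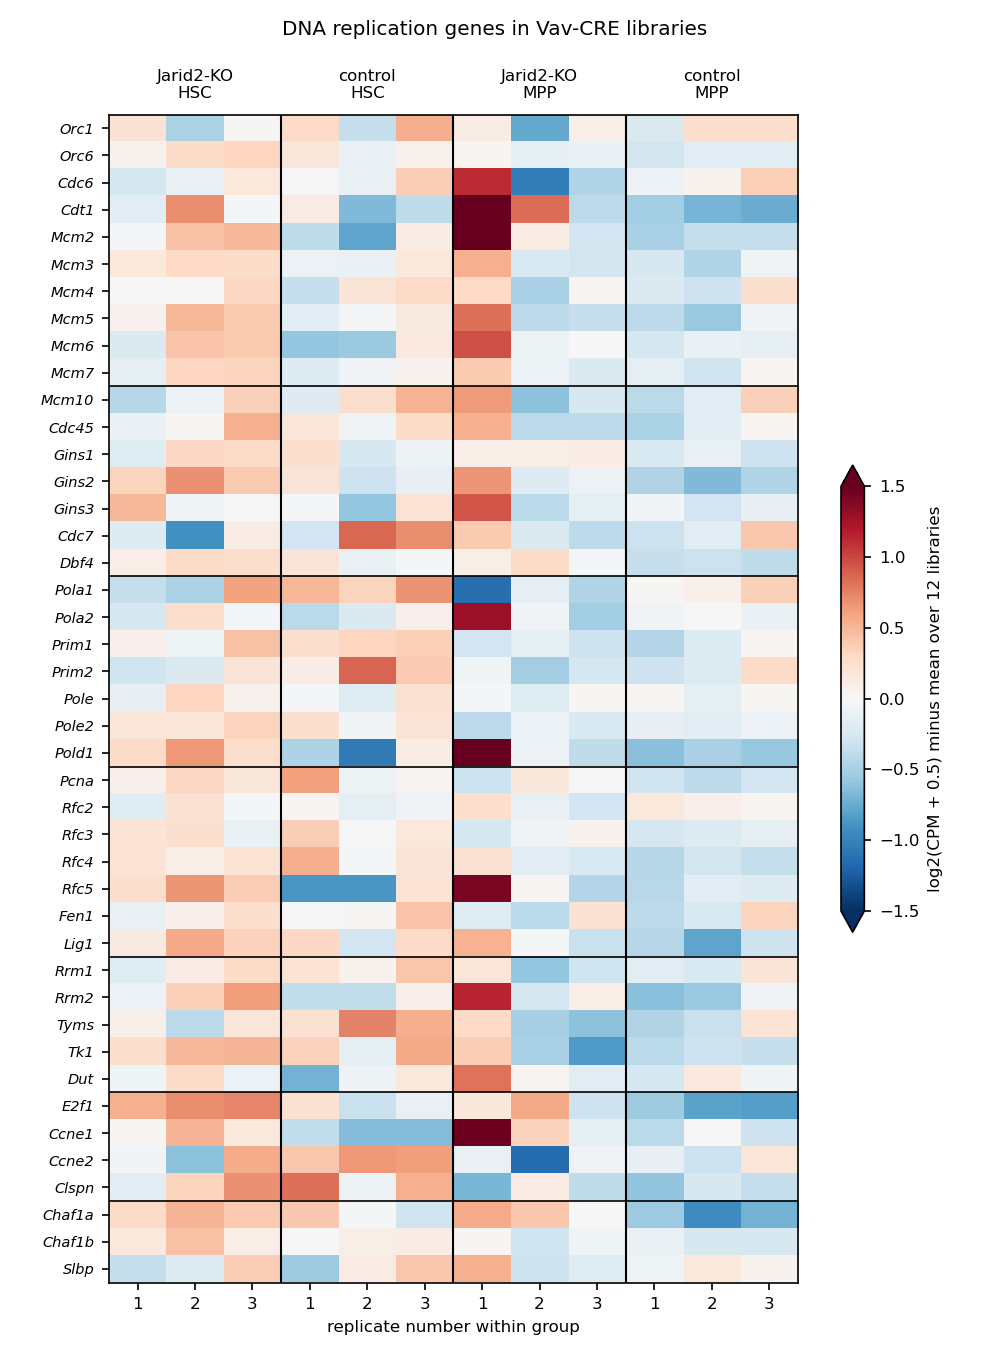
Level of the 43 genes in each Vav-CRE library, as log2(CPM + 0.5) minus the gene's mean over the 12 libraries (colour, cut at ±1.5), with the Jarid2-KO columns left of the control columns for HSC and for MPP and the rows grouped by role. Jarid2-KO MPP replicate 1 stands out among its group, with Cdt1, Mcm2 and Pold1 past the end of the scale.

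In Jarid2-KO HSC against control HSC, the replication genes did not move as a group. None of the 43 passed an adjusted p of 0.05 by edgeR's quasi-likelihood test, where 0.569% of all 15818 genes tested did (90 genes, 0.253% higher and 0.316% lower), 4 had an unadjusted p under 0.05 (17% of all genes did), and limma-voom with quality weights called 3 (8.97% of all genes). The median log2 fold change was 0.08 over the members and -0.03 over all genes, with 25 members above 0 and 18 below. The largest differences by p lay on both sides of 0.

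E2f1 (chr2:154559407-154569892), the transcription factor that drives S phase genes, had 24.7, 27.8 and 28.3 CPM in Jarid2-KO HSC against 19.8, 13.3 and 15.6 CPM in control HSC. The groups did not overlap, and the log2 fold change was 0.67 ± 0.26 (SE), with an adjusted p of 0.220 by edgeR that ranged between 0.0389 and 0.598 over 13 alternative analyses. Prim2 (chr1:33453810-33669795), the large subunit of primase, had 83.1, 88.2 and 117 CPM in Jarid2-KO HSC against 110, 188 and 135 CPM in control HSC. Its log2 fold change was -0.67 ± 0.26, with 1 knockout library above the lowest control, and its adjusted p by edgeR was 0.220 (0.0466 to 0.679 over the alternatives). Cdc7 (chr5:106964322-106984432), the kinase that fires origins, had 73, 44.5 and 90.5 CPM in Jarid2-KO HSC against 68.7, 152 and 136 CPM in control HSC, a log2 fold change of -0.86 ± 0.34 with an adjusted p of 0.231 by edgeR (0.0414 to 0.676). Its control libraries spread more widely than its knockout libraries, and the groups overlapped. Tyms (chr5:30058202-30073617), thymidylate synthase, had 228, 164 and 245 CPM in Jarid2-KO HSC against 252, 360 and 313 CPM in control HSC. Every knockout library was below every control, and the log2 fold change of -0.62 ± 0.28 had an adjusted p of 0.287 by edgeR (0.0695 to 0.721).

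By role, the licensing genes lay slightly above 0 in Jarid2-KO HSC, with 7 of 10 positive and a median log2 fold change of 0.18, and the polymerase and primase subunits were split 4 to 3 around a median of 0.03. The clamp and lagging strand genes had a median of -0.09, with 3 of 7 positive. Groups without overlap were found in the higher direction for E2f1, Rfc5, Ccne1, Pold1 and Gins2 (5 of 43, where 16.2% of all genes had this) and in the lower direction for Tyms (1 of 43, where 10.7% of all genes had this). Ccne1, cyclin E1, which drives cells into S phase, had 9.96, 14.1 and 11 CPM in Jarid2-KO HSC against 7.42, 6.05 and 6.02 CPM in control HSC. The other cyclin E gene, Ccne2, lay on the other side. It had 48.3, 32.2 and 73.8 CPM in Jarid2-KO HSC against 65.8, 78.2 and 77.2 CPM in control HSC. Neither gene passed the test.

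Other genes of the cell cycle did pass. Among 17 tested genes of G1 control, Mycn, a MYC family transcription factor, had 291, 224 and 255 CPM in Jarid2-KO HSC against 122, 109 and 114 CPM in control HSC, and it rose by 1.09 on the log2 scale with an adjusted p of 0.0390 by edgeR. Cdkn2c, an inhibitor of the G1 kinases Cdk4 and Cdk6, had 1.64, 2.17 and 2.72 CPM in Jarid2-KO HSC against 19.3, 7.10 and 11.9 CPM in control HSC, and it fell by 2.61 with an adjusted p of 0.0115. Of 20 mitosis genes, 1 fell and none rose, with a median of -0.39 and 14 of 20 below 0. The one past the test was Cenpf, a kinetochore protein, with 43.3, 35.5 and 70.9 CPM in Jarid2-KO HSC against 119, 88.4 and 112 CPM in control HSC, a log2 fold change of -1.16 and an adjusted p of 0.0476 by edgeR. The 44 further replication genes, of which 43 were tested, had no member past the test and a median of -0.12. All 15 granulocyte and monocyte progenitor markers lay above 0 in Jarid2-KO HSC (median 1.34, none past the test, sums of 3192 to 8897 CPM against 1145 to 3680 CPM in control HSC), and their part in the member values was not tested. In bulk libraries such as these, fewer cells that express a gene and less RNA per cell cannot be told apart.

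**Figure D2:**
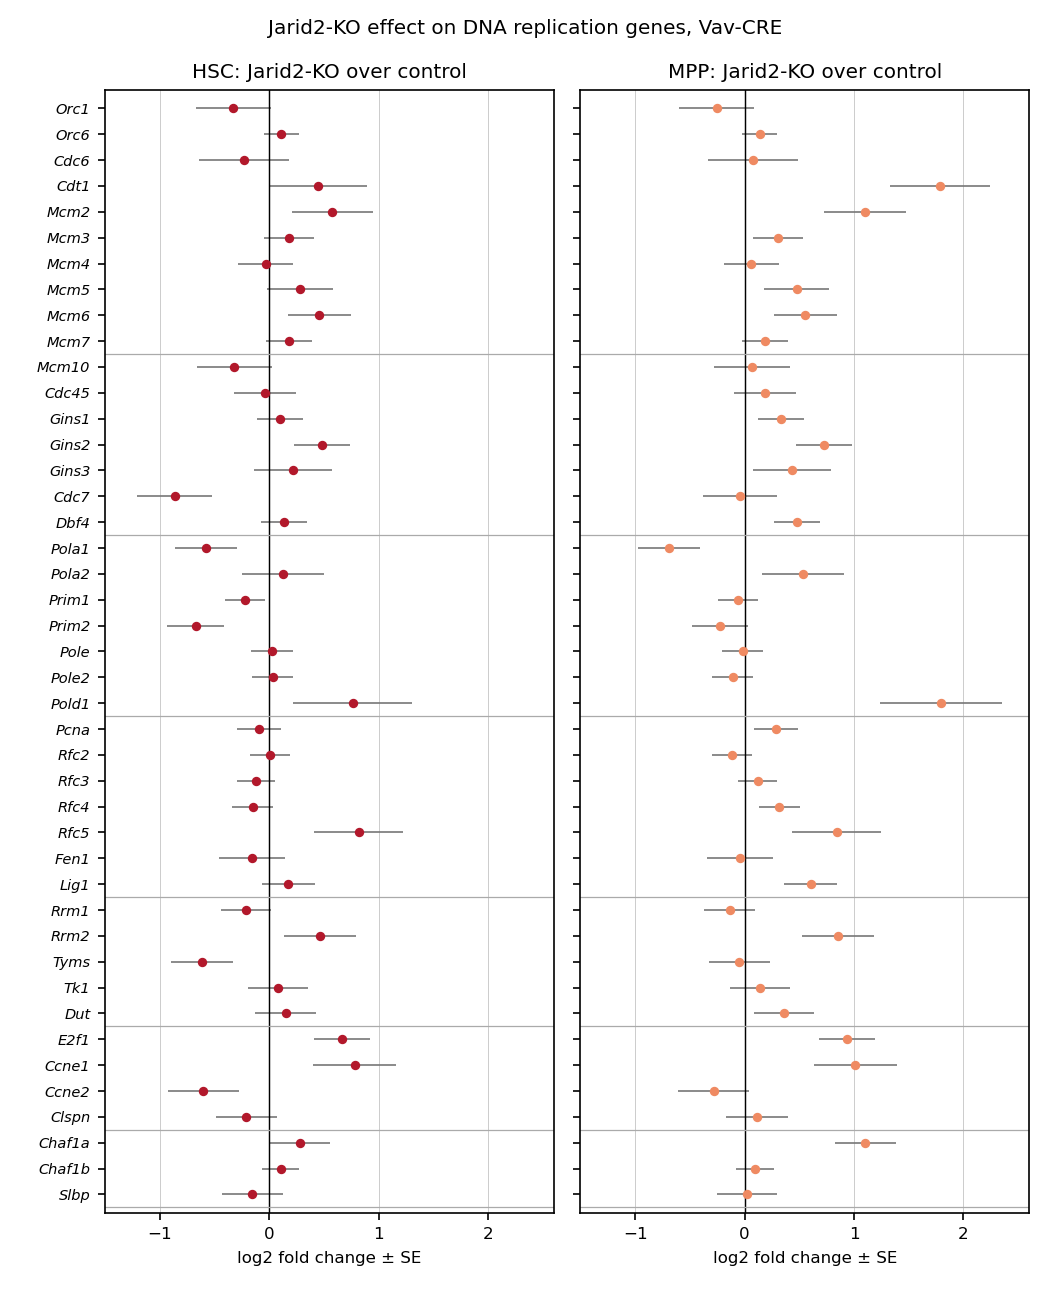
Log2 fold change of Jarid2-KO over control for the 43 genes in Vav-CRE HSC (left) and MPP (right), from edgeR, with bars of 1 SE and rows grouped by role. Cdt1 at 1.79 and Pold1 at 1.80 lie farthest from 0, both in MPP, and no gene passed an adjusted p of 0.05 in either panel.

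In Jarid2-KO MPP against control MPP, more members lay above 0, though none passed the test by edgeR. Of the 43 members, 31 were above 0 and 12 below, the median log2 fold change was 0.18 against 0.02 over all genes, and 11 had an unadjusted p under 0.05 by edgeR (19.3% of all genes did). Among all genes 0.948% passed an adjusted p of 0.05 (150 genes, 0.512% higher and 0.436% lower). DESeq2 and limma-voom each called Chaf1a, E2f1 and Cdt1 higher, where they called 4.56% and 1.69% of all genes higher. The upward lean rested on 1 library: without Jarid2-KO MPP replicate 1 the median was -0.04, against -0.02 over all genes, with 19 members above 0 and 24 below. That library had a summed CPM of 6715 over the members, where Jarid2-KO MPP replicates 2 and 3 had 3865 and 3958 CPM, and control MPP had 3759, 3761 and 4502 CPM. It also had 0.559% mitochondrial counts, where the other 11 libraries had 1.63% to 3.46%, and the highest sum of granulocyte and monocyte progenitor markers, with 23350 CPM against 13769 and 6162 CPM in the other Jarid2-KO MPP libraries. Whether either bears on the members was not tested.

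For the 3 members with the smallest p the difference did not rest on that library alone. Chaf1a (chr17:56040416-56068026), the large subunit of the chromatin assembly factor that puts histones on new DNA, had 20.4, 18.3 and 13.7 CPM in Jarid2-KO MPP against 9.29, 6.9 and 8.25 CPM in control MPP. The groups did not overlap, and the log2 fold change was 1.10 ± 0.28 (SE), with an adjusted p of 0.0766 by edgeR that ranged between 0.0029 and 0.259 over 13 alternatives. E2f1 had 19.1, 25.3 and 13.5 CPM in Jarid2-KO MPP against 11.5, 9.42 and 9.3 CPM in control MPP, without overlap, and its log2 fold change of 0.94 ± 0.26 had an adjusted p of 0.0933 by edgeR (0.0077 to 0.333). Without replicate 1 these changes were 0.95 for Chaf1a (adjusted p 0.125) and 0.92 for E2f1 (adjusted p 0.121). Cdt1 (chr8:122568015-122573128), the licensing factor whose promoter is shown above, had 71.6, 33.6 and 14 CPM in Jarid2-KO MPP against 12.8, 11.2 and 10.9 CPM in control MPP. All knockout libraries lay above all controls, by very different amounts, and the log2 fold change was 1.79 ± 0.46 with an adjusted p of 0.0788 by edgeR, or 1.01 with an adjusted p of 0.178 without replicate 1.

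In other members replicate 1 lay far above the rest of its group, and the change was smaller without it. Pold1 (chr7:44532746-44548849), the catalytic subunit of polymerase delta and also among the promoters shown, had 296, 53.4 and 43.5 CPM in Jarid2-KO MPP against 36.7, 40.6 and 38.1 CPM in control MPP. Its log2 fold change of 1.80 ± 0.56 (adjusted p 0.115 by edgeR) was 0.31 without replicate 1. Mcm2 had 309, 114 and 86.4 CPM in Jarid2-KO MPP against 75.3, 82.4 and 82.2 CPM in control MPP, and its change of 1.10 ± 0.38 (adjusted p 0.141 by edgeR) was 0.30 without that library. Rrm2 (chr12:24708241-24714146) had 763, 287 and 370 CPM in Jarid2-KO MPP against 223, 234 and 333 CPM in control MPP, with a change of 0.85 ± 0.33 (adjusted p 0.183 by edgeR) that was 0.29 without it. Pola2, an accessory subunit of polymerase alpha, was above the controls in replicate 1 alone, with 49.9, 19.4 and 14.0 CPM in Jarid2-KO MPP against 19.4, 20.2 and 18.7 CPM in control MPP. Pola1, the catalytic subunit, lay on the other side and had 28.3, 57.1 and 45.6 CPM in Jarid2-KO MPP against 63.3, 66 and 80.5 CPM in control MPP, with every knockout library below every control and a log2 fold change of -0.69 (adjusted p 0.207 by edgeR).

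By role, licensing genes were above 0 in 9 of 10 cases in Jarid2-KO MPP (median 0.24), firing genes in 6 of 7 (0.33), and polymerase and primase subunits in 2 of 7 (-0.06). Knockout libraries lay above all controls for 11 members, namely Mcm6, Gins1, E2f1, Dbf4, Mcm2, Pold1, Orc6, Gins2, Cdt1, Rfc4 and Chaf1a, where 9.07% of all genes had this. The reverse held for Pola1 alone, where 12.6% of all genes had it. Gins1, a subunit of the GINS part of the helicase, was the tightest of the 11, with a mean of 30.7 ± 0.1 CPM in Jarid2-KO MPP and 24.5 ± 1.8 CPM in control MPP (SD, n = 3 each). The fitted changes of the 11 lay between 0.14 for Orc6 and 1.80 for Pold1. Outside the list, Mycn rose by 1.55 (adjusted p 0.00365 by edgeR) and Cdkn2c fell by 2.06 (adjusted p 0.0206) in Jarid2-KO MPP, while no mitosis gene (8 of 20 above 0, median -0.08) and none of the 43 further replication genes tested (median 0.25) passed. Of the 15 granulocyte and monocyte progenitor markers, 14 lay above 0 in Jarid2-KO MPP, with a median of 1.18 and none past the test.

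Among the other members, Mcm6 averaged 303 ± 131 CPM in Jarid2-KO MPP and 208 ± 12.1 CPM in control MPP (SD, n = 3 each), a change of 0.56 ± 0.29 (SE) with an adjusted p of 0.304 by edgeR. Rfc5, a clamp loader subunit, averaged 61.1 ± 43.8 CPM in Jarid2-KO MPP and 34.5 ± 3.3 CPM in control MPP, with an adjusted p of 0.275, and it too was high in replicate 1. Lig1, the ligase that joins lagging strand fragments and the last of the promoters shown, had 197, 135 and 109 CPM in Jarid2-KO MPP against 101, 78.5 and 110 CPM in control MPP, a change of 0.60 ± 0.24 with an adjusted p of 0.199 by edgeR. Its groups overlapped by 1 library. Several members lay close to 0 in both cell types. Pole, the catalytic subunit of polymerase epsilon, had changes of -0.02 ± 0.19 in MPP and 0.03 ± 0.19 in HSC, and Chaf1b, the partner of Chaf1a, had 0.10 ± 0.17 in each. Fen1, the flap endonuclease of the lagging strand, had -0.04 ± 0.30 in MPP and -0.15 ± 0.30 in HSC, and Slbp, which binds histone mRNA, had 0.02 ± 0.28 and -0.15 ± 0.28.

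The Jarid2-KO effect was set against itself between the cell types as an interaction, the change in MPP minus the change in HSC. No member had an unadjusted p under 0.05 by edgeR (2.65% of all genes did), no gene of the 15818 passed the adjusted threshold (0% called), and DESeq2 and limma-voom called no member either. The difference was above 0 for 38 of 43 members, with a median of 0.23 against 0.07 over all genes, of which 57.3% were above 0. Without Jarid2-KO MPP replicate 1 the median was -0.11, with 17 above 0 and 26 below. Cdt1, with a difference of 1.34 ± 0.63 (SE), and Chaf1a, with 0.82 ± 0.39, came first by p, ahead of Rfc4 with 0.47 and Cdc7 with 0.82, all with an adjusted p of 1.00 by edgeR.

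In control mice, most replication genes had lower values in MPP than in HSC, by small amounts. Of 43 members, 37 were below 0 in MPP over HSC and 6 above, with a median log2 fold change of -0.32 against -0.02 over all genes, of which 48.1% were above 0. No member passed an adjusted p of 0.05 by edgeR (1.17% of all genes did, 185 genes, 0.512% higher and 0.657% lower), 11 had an unadjusted p under 0.05 (8.44% of all genes did), DESeq2 called 2 lower (Rfc4 and Chaf1a, where 1.64% of all genes were called lower) and limma-voom called 7 lower (2.48%). Rfc4 (chr16:23113943-23127737), a clamp loader subunit, had 99.7, 110 and 105 CPM in control MPP against 195, 132 and 153 CPM in control HSC, with no overlap and a log2 fold change of -0.67 ± 0.19 (adjusted p 0.130 by edgeR, 0.0131 to 0.516 over 14 alternatives). Clspn, claspin, an adaptor of the replication checkpoint whose promoter is among those shown, had 18.1, 23.2 and 21.4 CPM in control MPP against 49.2, 26.2 and 40.2 CPM in control HSC, a change of -0.93 ± 0.28 (adjusted p 0.181 by edgeR, 0.0314 to 0.644). Chaf1a had a change of -0.87 ± 0.28 (adjusted p 0.219 by edgeR). Prim1, the small catalytic subunit of primase, had one of -0.56 ± 0.18 (adjusted p 0.240 by edgeR). For all 4 of these genes every control MPP library lay below every control HSC library, as it did for 16 members in all, where 7.69% of all genes had this.

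The lower values in control MPP ran through the roles, with 9 of 10 licensing genes, 7 of 7 firing genes, 6 of 7 polymerase and primase subunits, 4 of 5 genes of nucleotide supply and all 3 genes of chromatin assembly and histone mRNA below 0. The median was closest to 0 for licensing, at -0.16, and farthest for S phase entry and checkpoint, at -0.72. Rfc2 was the exception with control MPP above control HSC in every library (10.7% of all genes had this), with means of 248 ± 10.7 CPM in control MPP and 224 ± 12.2 CPM in control HSC (SD, n = 3 each). The 20 mitosis genes leaned the same way, with 18 below 0 and a median of -0.38, as did 36 of 43 further replication genes. Of G1 control genes 1 fell in control MPP, the Cdk inhibitor Cdkn1c (log2 fold change -1.80, adjusted p 0.0260 by edgeR). The 8 multipotent and lymphoid progenitor markers summed to 1564 to 1766 CPM in control MPP against 353 to 461 CPM in control HSC. Among them Flt3, a receptor of multipotent progenitors, rose by 3.33 on the log2 scale. The sum of the 10 stem cell markers did not separate the cell types, with 3291 to 3616 CPM in control MPP against 3020 to 3989 CPM in control HSC. One of these, Slamf1, encodes the CD150 used in the sort, and it fell by 3.90 in control MPP.

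The same cell types were also compared within the knockout. In Jarid2-KO MPP against Jarid2-KO HSC, 29 members were below 0 and 14 above, with a median of -0.15 against 0.05 over all genes, and none passed the test by edgeR (0.525% of all genes did, 83 genes, 0.177% higher and 0.348% lower; 4 members and 10.8% of all genes had an unadjusted p under 0.05; DESeq2 and limma-voom called none). Pole2, an accessory subunit of polymerase epsilon, had 22.1, 27.3 and 24.6 CPM in Jarid2-KO MPP against 33.1, 32.9 and 36.7 CPM in Jarid2-KO HSC. Its change was -0.46 (adjusted p 0.368 by edgeR). Every Jarid2-KO MPP library lay below every Jarid2-KO HSC library, as in 4 of 43 members, where 6.87% of all genes had this. Tk1, thymidine kinase, had 77, 42.2 and 32.7 CPM in Jarid2-KO MPP against 71.6, 83.1 and 84.8 CPM in Jarid2-KO HSC. Its change was -0.64 (adjusted p 0.413 by edgeR), and -1.11 with an adjusted p of 0.0119 without Jarid2-KO MPP replicate 1 (0.519% of all genes were called lower). Prim1 and Clspn, next by p, had changes of -0.40 and -0.60, and neither passed. Without that replicate 42 of 43 members were below 0, with a median of -0.39.

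Ratios within a library are left unchanged only by other RNA that holds none of the genes in them. They are given as descriptions, since they were chosen after the values were seen. The summed CPM of the 43 members over that of the 20 mitosis genes was 3.60, 3.60 and 2.87 in Jarid2-KO HSC against 2.23, 2.76 and 2.26 in control HSC. In MPP it was 3.37, 3.48 and 3.36 in Jarid2-KO against 2.66, 2.44 and 2.56 in control. Each knockout library was above every control library of its cell type, and Jarid2-KO MPP replicate 1 did not stand apart. The same ratio was 2.62 and 2.49 in double mutant HSC, against 2.04 and 1.83 in Jak2V617F HSC and 2.02 and 1.86 in control HSC. It was 2.85 and 2.77 in double mutant MPP, against 1.90 and 2.10 in Jak2V617F MPP and 1.87 and 1.81 in control MPP. All libraries that carry the Jarid2 knockout thus had more replication transcript per mitosis transcript than the other libraries of their cohort and cell type. In Vav-CRE MPP the mitosis sum was 1995, 1112 and 1177 CPM in Jarid2-KO against 1415, 1539 and 1755 CPM in control. The member sums of Jarid2-KO MPP replicates 2 and 3 lay within the control range. Set over the 44 further replication genes, the members did not separate the Vav-CRE genotypes. That ratio was 1.12, 1.29 and 1.23 in Jarid2-KO HSC against 1.10, 1.06 and 1.19 in control HSC. In MPP it was 1.60, 1.05 and 1.02 against 1.05, 1.06 and 1.10. In the Mx1-CRE cohort this ratio was lower in the replicate with more heart muscle transcripts where replicates differed in them. It was 1.23 against 1.68 in control MPP and 1.54 against 1.77 in Jak2V617F HSC. In the double mutants it was 1.16 against 1.44 in HSC and 1.48 against 2.21 in MPP. The stem cell and progenitor markers also differed between the double mutants and the other Mx1-CRE libraries. There the genotype and the cells sorted cannot be told apart.

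Rrm2 and Rrm1 encode the subunits of 1 enzyme, and their balance also differed. The CPM of Rrm2 over that of Rrm1 was 1.09, 1.21 and 1.30 in Jarid2-KO HSC against 0.692, 0.769 and 0.810 in control HSC. In MPP it was 1.99, 1.27 and 1.35 in Jarid2-KO against 0.743, 0.814 and 0.862 in control. No knockout library overlapped a control. Rrm2 itself had 325, 442 and 535 CPM in Jarid2-KO HSC against 268, 268 and 365 CPM in control HSC, and Rrm1 had 298, 364 and 410 CPM against 387, 348 and 450 CPM, so the fitted changes of the 2 genes had opposite signs. In the Mx1-CRE cohort the ratio split the double mutants by cell type: it was 1.14 and 0.964 in double mutant HSC, against 1.33 and 1.63 in Jak2V617F HSC and 1.64 and 1.49 in control HSC, and 2.80 and 2.43 in double mutant MPP, against 1.41 and 1.83 in Jak2V617F MPP and 1.51 and 1.77 in control MPP. It was thus the lowest of the cohort in the double mutant HSC and the highest in the double mutant MPP.

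**Figure D3:**
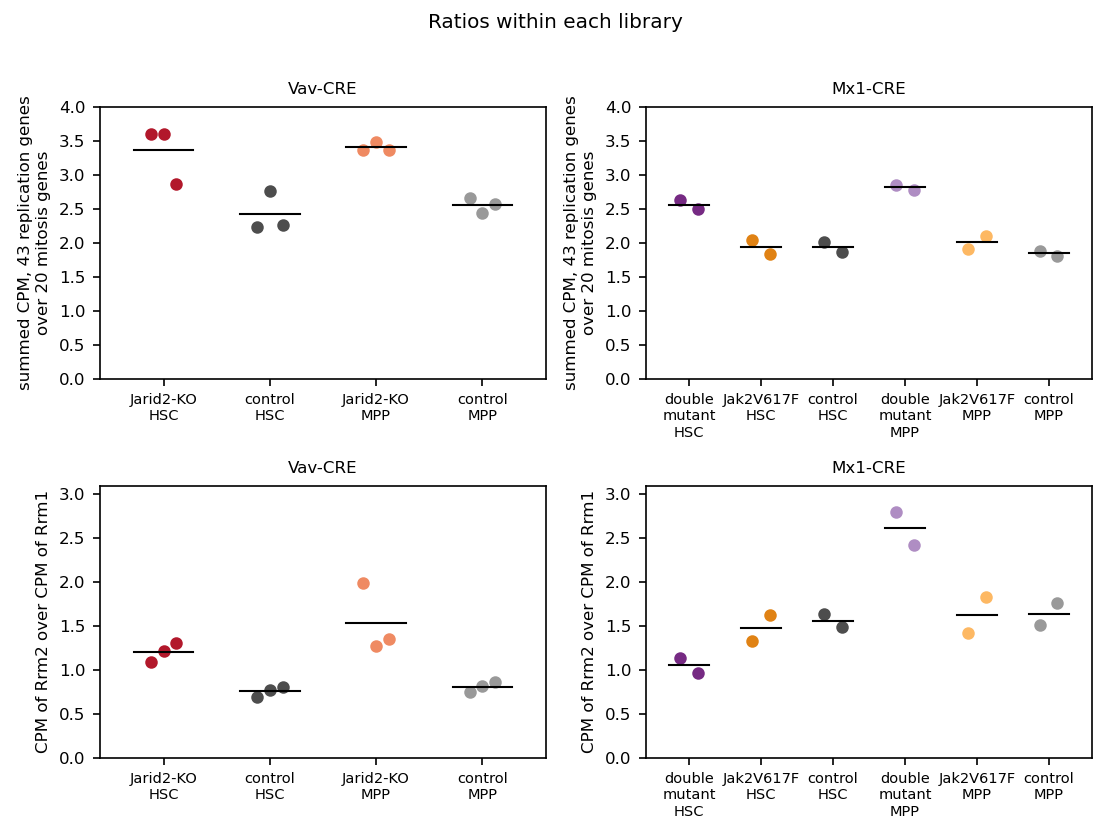
Ratio of the summed CPM of the 43 replication genes to that of the 20 mitosis genes (top) and of Rrm2 to Rrm1 (bottom) in each library (dots; line, group mean) of the Vav-CRE (left) and Mx1-CRE (right) cohorts. In the top panels each library with the Jarid2 knockout lies above the libraries without it, and in the lower right panel the double mutant HSC lie lowest, at 0.964 and 1.14, and the double mutant MPP highest, at 2.43 and 2.80.

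In the Mx1-CRE cohort, the summed CPM of the members was lower in the libraries with more heart muscle transcripts. It was 2514 to 5107 CPM in the 6 libraries above 4% heart muscle counts and 6918 to 13746 CPM in the other 6, and the share of mitochondrial counts was 4.96% to 6.74% in the first set and 1.31% to 1.94% in the second. Replicates of 1 group fell on both sides: double mutant MPP had 3172 and 13746 CPM, Jak2V617F HSC 10866 and 5107 CPM and control MPP 8948 and 2514 CPM. The 2 libraries with the highest sums, double mutant MPP replicate 2 and Jak2V617F HSC replicate 1, had 27731 and 19223 CPM of erythroid markers. With this spread (SE of a member's log2 fold change 0.59 to 0.95 between genotypes within a cell type), no member and no gene of 19616 passed an adjusted p of 0.05 by edgeR in any of the 11 comparisons of the cohort (0% called).

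**Figure D4:**
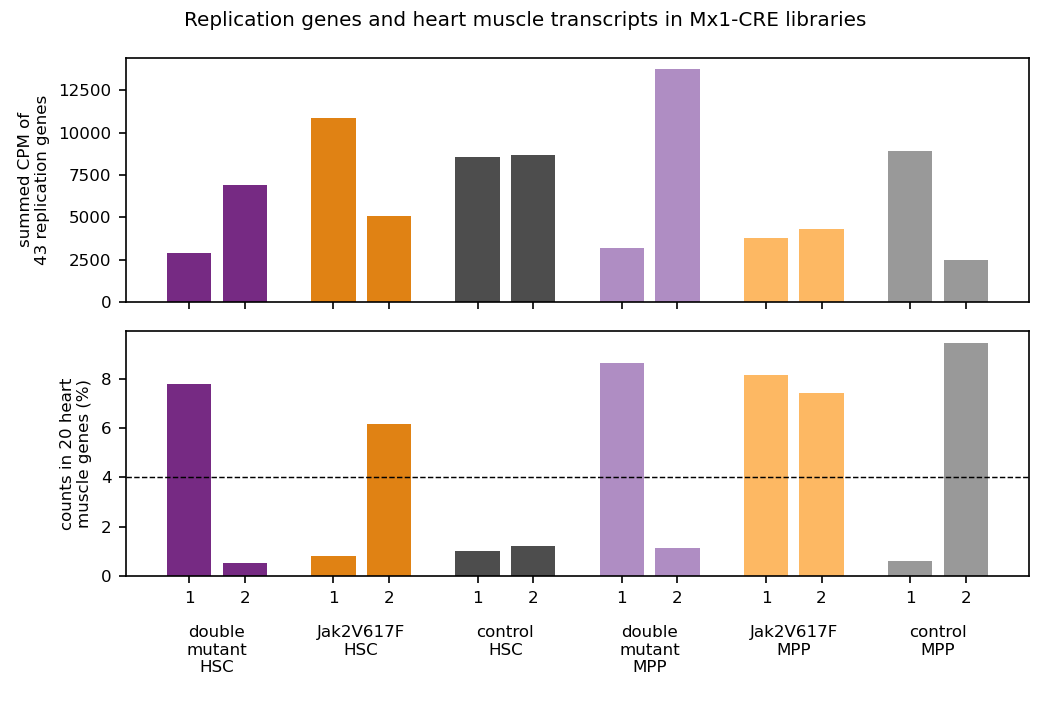
Summed CPM of the 43 replication genes (top) and percent of counts in 20 heart muscle genes (bottom) in each Mx1-CRE library, with replicate numbers under the bars and a dashed line at 4%. All 6 libraries above the line have sums of at most 5107 CPM, and the other 6 have at least 6918 CPM.

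In double mutant HSC against Jak2V617F HSC, 42 of 43 members were below 0, with a median log2 fold change of -0.86 against -0.01 over all genes. Of the members 5 had an unadjusted p under 0.05 by edgeR, as did 4.68% of all genes. Cdc6 (chr11:98907801-98923940), the licensing factor, had 49 and 96.5 CPM in double mutant HSC against 407 and 156 CPM in Jak2V617F HSC, a change of -2.29 ± 0.93 (SE) with an adjusted p of 0.917. Orc1 (chr4:108579423-108614833), of the origin recognition complex, had 3.66 and 20 CPM in double mutant HSC against 62.3 and 25 CPM in Jak2V617F HSC, a change of -2.28 ± 0.95 with an adjusted p of 0.953 by edgeR. Ccne1 (-1.76) and Ccne2 (-1.58) followed, with adjusted p of 0.993 and 1.00. In all 4 genes both double mutant libraries lay below both Jak2V617F libraries, as in 9 members in all, where 10% of all genes had this. Without Jak2V617F HSC replicate 1 the median was -0.06, with 20 members above 0 and 23 below. The Jak2V617F HSC library that is left then has 6.18% heart muscle counts. In the libraries above 4%, the members summed to 2885 CPM in double mutant HSC and 5107 CPM in Jak2V617F HSC. In those under 4% the sums were 6918 and 10866 CPM, so the double mutant was the lower on either side.

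A further fit held a term that marks the libraries above 4% heart muscle counts (the heart muscle term). It treats these libraries alike, whatever their share. With it, 10 members were lower in double mutant HSC than in Jak2V617F HSC at an adjusted p of 0.05 by edgeR, where 1.79% of all genes were called lower (352 genes). They were Mcm10, Dut, Ccne2, Orc1, Rrm1, Orc6, Cdc6, Rrm2, Pole2 and Cdc45, which work in licensing, firing, nucleotide supply, S phase entry and leading strand copying. Rrm2 changed by -1.77 ± 0.32 (SE, adjusted p 0.000991), Orc1 by -2.46 ± 0.46 (0.00118) and Cdc6 by -2.02 ± 0.42 (0.0116) in that fit. Among the libraries at or under 4% alone, each of these groups has 1 library, and the spread comes only from the pair of control HSC libraries. There, of the members named, Rrm2 changed by -1.83, Cdc6 by -2.37 and Rrm1 by -1.37. Above 4% each group also has 1 library. In these, Rrm2 had 273 CPM in double mutant HSC and 814 CPM in Jak2V617F HSC. Cdc6 had 49 and 156 CPM, and Rrm1 had 240 and 501 CPM. The other gene groups moved at the same time: mitosis genes were below 0 in 20 of 20 cases (median -1.40), granulocyte and monocyte progenitor markers in 15 of 15 (-3.82) and erythroid markers in 14 of 14 (-2.08). The Jak2V617F libraries lack the stem cell markers that the double mutant HSC have, so genotype and the kind of cell in the library cannot be told apart here.

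In double mutant MPP against Jak2V617F MPP, the members leaned the other way, with 40 of 43 above 0 and a median of 0.85 against -0.04 over all genes. Of the members 1 had an unadjusted p under 0.05 by edgeR (3% of all genes did). The lean rested on double mutant MPP replicate 2, without which the median was -0.43, with 7 members above 0 and 36 below. With the heart muscle term in the fit the median was -0.19, with 14 members above 0 and 29 below. The heart muscle genes held 8.63% and 1.14% of counts in double mutant MPP against 8.13% and 7.41% in Jak2V617F MPP. The stem cell markers summed to 927 and 1585 CPM in double mutant MPP against 296 and 342 CPM in Jak2V617F MPP. Genotype and the kind of cell thus cannot be told apart in MPP either. Ccne1 kept its sign in every alternative, between 1.45 and 2.80 on the log2 scale. It had 31.7 and 82.5 CPM in double mutant MPP against 13.2 and 9.01 CPM in Jak2V617F MPP, a change of 2.27 ± 0.77 (SE) with an adjusted p of 1.00 by edgeR. Orc6, Chaf1a and Rrm2, next by p, had changes of 1.33, 1.35 and 1.47, each with an adjusted p of 1.00.

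The double mutants were also set against control. In HSC, 42 of 43 members were below 0 (median -1.02 against 0.11 over all genes, -0.57 without double mutant HSC replicate 1 and -1.56 without replicate 2), 8 had an unadjusted p under 0.05 by edgeR (6.37% of all genes did) and 23 lay below both controls in both double mutant libraries, where 11.9% of all genes did. Chaf1a, with 8.15 and 23.5 CPM in double mutant HSC against 75 and 34.3 CPM in control HSC, came first by p, with a change of -2.23 (adjusted p 0.541 by edgeR), followed by Ccne2 (-1.76), Cdc45 (-1.79) and Mcm10 (-2.04). The heart muscle genes held 7.79% and 0.533% of counts in double mutant HSC against 1.00% and 1.23% in control HSC. The stem cell markers summed to 1239 and 3543 CPM in double mutant HSC against 372 and 298 CPM in control HSC. Genotype, the kind of cell and the heart muscle share thus cannot be told apart in HSC. In MPP, 26 of 43 members were above 0 in the double mutant over control (median 0.10), with 1 unadjusted p under 0.05 by edgeR (4.71% of all genes). That median was -1.08 without double mutant MPP replicate 2 and -0.53 without control MPP replicate 2. E2f1 and Ccne1 were the members above both controls in both libraries (14.1% of all genes were). Ccne1 had 31.7 and 82.5 CPM in double mutant MPP against 13.4 and 8.63 CPM in control MPP, a change of 2.14 ± 0.77 (SE, adjusted p 0.808 by edgeR). It was called higher with the heart muscle term in the fit, at 2.06 ± 0.50 (adjusted p 0.0227 by edgeR), where 0.622% of all genes were. E2f1 had 13.8 and 31.1 CPM in double mutant MPP against 9.94 and 6.36 CPM in control MPP, a change of 1.23 with an adjusted p of 1.00.

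**Figure D5:**
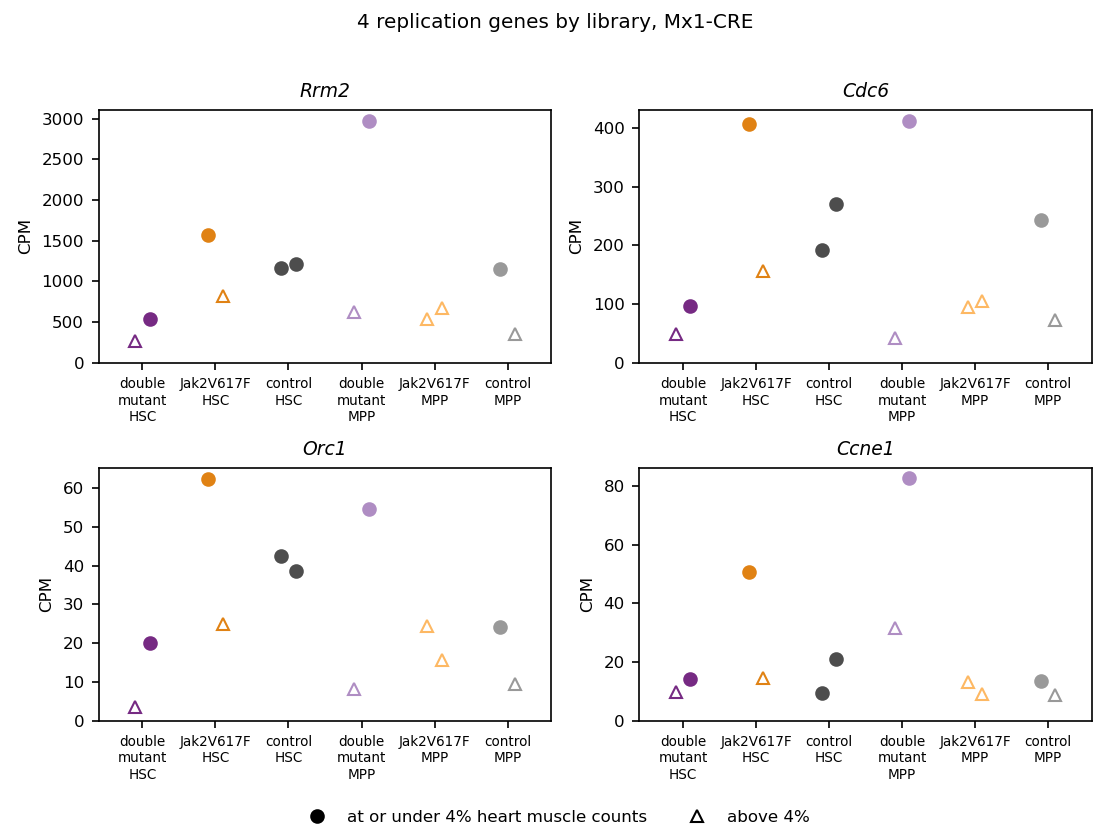
CPM of Rrm2, Cdc6, Orc1 and Ccne1 in each Mx1-CRE library, with libraries above 4% heart muscle counts as open triangles and the others as filled circles. Within each kind of symbol double mutant HSC lie below Jak2V617F HSC for Rrm2, Cdc6 and Orc1, and in double mutant MPP Ccne1 reaches 31.7 and 82.5 CPM, against at most 13.4 CPM in the other MPP libraries.

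Within the double mutants the groups share the stem cell markers, and each has 1 library on either side of 4% heart muscle counts. There 39 of 43 members were above 0 in MPP over HSC, with a median of 0.76 against 0.02 over all genes, and 2 had an unadjusted p under 0.05 by edgeR (1.62% of all genes did). With the heart muscle term in the fit the median was 0.56, and without double mutant MPP replicate 2 it was -0.56, with 4 members above 0 and 39 below. Rrm2 had 623 and 2974 CPM in double mutant MPP against 273 and 541 CPM in double mutant HSC, a change of 2.24 ± 0.87 (SE) with an adjusted p of 1.00 by edgeR. With the heart muscle term in the fit Rrm2 was called higher, at 1.89 ± 0.33 (adjusted p 0.00291 by edgeR, where 0.127% of all genes were called higher). Its change was 2.47 in the libraries under 4% alone and 1.12 in those above it, with 1 library of each group on either side. Ccne1 had 31.7 and 82.5 CPM in double mutant MPP against 9.75 and 14.3 CPM in double mutant HSC, a change of 2.33 ± 0.77 (adjusted p 1.00 by edgeR), and these were the 2 members without overlap, where 7.39% of all genes had this. Cdc6 had 42.2 and 412 CPM in double mutant MPP against 49 and 96.5 CPM in double mutant HSC, and its direction differed between the libraries. Erythroid markers were also above 0 in 14 of 14 cases in this comparison, with a median of 3.99 and none past the test.

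The effect of the added Jarid2 knockout, double mutant over Jak2V617F, was set between the cell types as MPP minus HSC. The difference was above 0 for 42 of 43 members, with a median of 1.69 against -0.01 over all genes. That median was 0.50 without double mutant MPP replicate 2 and 0.96 without Jak2V617F HSC replicate 1, with 33 and 38 members above 0. The difference was 4.03 ± 1.08 (SE) for Ccne1, 3.35 for Rrm2, 3.37 for Cdc6 and 2.50 for Ccne2, all with an adjusted p of 1.00 by edgeR, and 5 members had an unadjusted p under 0.05, as did 2.44% of all genes. With the heart muscle term in the fit the median was 0.73. Among the libraries above 4% alone Rrm2 was called higher, at 1.52 (0.166% of all genes were), where double mutant HSC, double mutant MPP and Jak2V617F HSC each have 1 library.

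In Jak2V617F against control, the members were split around 0 in HSC and mostly below 0 in MPP, and none passed the test by edgeR. In HSC, 17 members were above 0 and 26 below (median -0.18 against 0.09 over all genes) and 1 had an unadjusted p under 0.05 by edgeR (1.52% of all genes did): Chaf1a, with 18.2 and 17.3 CPM in Jak2V617F HSC against 75 and 34.3 CPM in control HSC, a change of -1.74 ± 0.78 (SE, adjusted p 1.00). Both its Jak2V617F HSC libraries lay below both controls, as in 4 of 43 members, where 13.3% of all genes had this. The HSC median was 0.22 without Jak2V617F HSC replicate 2. In MPP, 41 of 43 were below 0 with a median of -0.60 (0.59 without control MPP replicate 1), and no member had an unadjusted p under 0.05 by edgeR (1.35% of all genes did), but both Jak2V617F MPP libraries are above 4% heart muscle counts and 1 of the control MPP libraries is. With the heart muscle term in the fit the medians were 0.40 in HSC and 0.39 in MPP, with 41 and 38 members above 0, so the direction turned with that term, and none was called. Among the libraries above 4% alone 4 members (Rrm1, Mcm5, Rrm2 and Rfc4) were called higher in Jak2V617F MPP, where 0.722% of all genes were called higher. Between cell types, 42 of 43 members were below 0 in Jak2V617F MPP over HSC (median -1.08, and -0.28 without Jak2V617F HSC replicate 1) and 41 of 43 in control MPP over HSC (median -0.60), and 1 member and none had an unadjusted p under 0.05 by edgeR (1.08% and 2.67% of all genes). The heart muscle term in the fit left medians of -0.18 and -0.10, and without control MPP replicate 2 the control median was 0.09. The members by p in these comparisons were Ccne1 (-1.70), Cdc6 (-1.64), Prim2 (-1.27) and Orc6 (-1.22) in Jak2V617F, and Chaf1a (-1.45), E2f1 (-1.13), Orc1 (-1.30) and Gins3 (-1.07) in control, with adjusted p of 0.892 and 0.843 by edgeR. The Jak2V617F effect in MPP minus that in HSC was below 0 for 37 of 43 members, with a median of -0.49 against -0.22 over all genes (0.81 without control MPP replicate 1 and 0.26 without Jak2V617F HSC replicate 1), and no member had an unadjusted p under 0.05 by edgeR (1.52% of all genes did). Limma-voom and DESeq2 called no member in any Mx1-CRE comparison.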

How the data were processed

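RNA-seq of 24 sorted HSC and MPP libraries was analysed; 8 ChIP samples were not analysed here. Libraries were made from 3 to 5 ng of RNA with the SMARTer Ultra Low kit, per the labels' protocols. The kit does not mark strand, so reads of a member and of a gene overlapping it on the other strand cannot be told apart. The submitters' processing notes name, with no role given, Partek 6.6, HTSeq 0.8.0, featureCounts 1.4.5 of Subread, STAR 2.0.4 and mm10. The deposited tables give, per the file headers, a count, a CPM and an RPKM value per gene. CPM recomputed from the deposited counts matched the deposited CPM, and the RPKM, scaled by the authors for the counted length, were used only for levels. The exons listed differed between the cohorts for 14573 genes, so each cohort was fitted on its own; the members' counted lengths were the same in both. Counts were tested with edgeR 4.0.16 (R 4.3.3): TMM, filterByExpr with a minimum count of 10 and a minimum total of 15, robust quasi-likelihood F test over all groups of the cohort, Benjamini-Hochberg adjustment over 15818 (Vav-CRE) or 19616 (Mx1-CRE) genes, threshold 0.05. The SE of a log2 fold change was taken from it and F. The residual degrees of freedom were 8 and 6. The fit was tested on simulated data for Jarid2-KO over control in Vav-CRE HSC. For Mx1-CRE this was done only with the heart muscle term, for double mutant over Jak2V617F in HSC. The simulated Mx1-CRE spread was smaller than that of the libraries. The main Mx1-CRE fit and the split fits were not simulated. Alternatives were other size factors, no filter or a minimum of 20, DESeq2 1.42.0, limma 3.58.1 voom, replicate blocks and only the groups compared. Each library was also left out in turn. For Mx1-CRE they also held a term marking libraries above 4% heart muscle counts, and libraries split at 4%. The fit of the libraries above 4% alone was added after the data were seen. Members and lists were chosen with earlier results of these data known. Named in each comparison are members past the threshold or, where fewer than 4 passed, the 4 with the smallest p; genes named for their groups' lack of overlap, and the ratios, were chosen after their values were seen. The libraries were not treated as paired by replicate number. The residuals of libraries with the same number and genotype had a median correlation of 0.0822 (Vav-CRE, -0.00907 to 0.299) and 0.0448 (Mx1-CRE, -0.0157 to 0.523). In Mx1-CRE the residuals of the 2 libraries of a group mirror each other. These values cannot decide whether HSC and MPP of 1 number came from the same pool.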

Additional observations from a re-analysis of the deposited data

How the results depend on the processing

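Of the 232 counts of members called under an alternative, 211 stayed within 1.5 times the count reported, all of which are 0, and 21 did not. For Jarid2-KO over control in Vav-CRE HSC, 1 member was called with no filter on low counts (Cdc7, 2.55% of all genes) and 3 by limma-voom (8.97%); in MPP, 4 were called with no filter (4.02%), 3 by DESeq2 (7.01%) and 3 by limma-voom (2.91%), and 0 to 6 with 1 library left out, the 6 without Jarid2-KO MPP replicate 3 (9.03%). For MPP over HSC, DESeq2 called 2 (3% of all genes) and limma-voom 7 (4.65%) in control, and leaving out 1 library gave 0 to 1 in Jarid2-KO, the 1 without MPP replicate 1 (0.832%). In Mx1-CRE, the heart muscle term gave 10 for double mutant over Jak2V617F in HSC (2.75% of all genes), 1 for double mutant over control in MPP (1.58%) and 1 for double mutant MPP over HSC (0.214%); leaving out the libraries above 4% gave 3 for the first (2.1%), 2 for double mutant over control in HSC (2.21%) and 1 for double mutant MPP over HSC (0.343%); and those libraries alone gave 4 for Jak2V617F over control in MPP (0.837%), 10 (3.42%) and 8 (4.11%) for double mutant over Jak2V617F in HSC and MPP, 2 for double mutant over control in MPP (3.04%), 1 for the added Jarid2-KO effect in MPP minus HSC (0.456%) and 1 for double mutant MPP over HSC (1.35%). In these split fits the lone library of a group is assumed to vary like the pair that is left, on 1 residual degree of freedom. The cause was not tested. With the replicate number as a block, 0 members were called in every comparison. The number and genotype as a block were fitted only for MPP over HSC and for effects in MPP minus HSC. There too 0 members were called. Of the single members named, 20 values changed sign, 873 kept sign and side and 35 passed the threshold. With the heart muscle term Rfc2 (0.064) and Cdc7 (0.061) turned for Jak2V617F over control in HSC and Cdc7 (0.25) in MPP; in the libraries above 4% alone Gins2 (0.45), Ccne2 (0.41) and Cdc7 (0.82) turned for Jak2V617F over control in MPP, Rrm2 (-0.020) for double mutant over Jak2V617F in MPP and Cdc6 (-0.28) for double mutant MPP over HSC. With 1 library left out, values ranged from -0.21 to 1.76 for Ccne1 (Jak2V617F over control, HSC), -1.78 to 0.45 for Gins2, -1.57 to 0.41 for Ccne2 and -1.85 to 0.83 for Cdc7 (Jak2V617F over control, MPP), -0.021 to 2.21 for Rrm2 (double mutant over Jak2V617F, MPP), -0.49 to 2.20 for Rrm2 and -0.27 to 1.86 for Orc6 (double mutant over control, MPP), -0.71 to 2.56 for Cdc6 (double mutant MPP over HSC), and, for the Jak2V617F effect in MPP minus HSC, -1.87 to 0.10 for Ccne1, -1.51 to 0.16 for Orc6, -1.63 to 0.58 for Rfc3 and -1.70 to 0.17 for Cdc6. With 3 or 2 libraries a group, differences near 1 SE of a member (0.16 to 1.31) were not detectable.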
